A study of Mus musculus with 12 samples.

Results

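The genes described here are Tpt1, Magoh, Rbm8a, Pdcd5, Prdx1, Tbca, Nudt2, Shfm1 and Snhg6. They are 9 of 20985 gene rows, and they were selected on their measured levels. Their RNA was high in the anti-ORF1p immunoprecipitate against both of its close references and yet low against the whole extract, and ribosomal protein genes were set aside. The 3 ratios that chose them are therefore given below as a description without a test. All 12 RNA-seq libraries came from testes of Mael-/- mice on the C57BL/6 strain at 3 months of age, with 3 libraries in each of 4 groups, and the controls carried the same deletion as every other sample. TOTAL is RNA of the clarified testis extract. INPUT is RNA of pooled sucrose fractions 5 to 8 of that extract after 10 mM EDTA, an agent that takes ribosomes apart. IP is RNA brought down from INPUT by beads carrying an antibody to ORF1p, and BO (beads only) is RNA left on beads without an antibody.

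LINE-1 (L1) is a mouse retrotransposon that copies itself through RNA. Its first protein, ORF1p, binds RNA and packs it into ribonucleoprotein (RNP) particles, preferring the L1 RNA that encodes it. Maelstrom, the product of Mael, takes part in the piRNA pathway that silences L1 in male germ cells, and without it L1 is expressed in spermatocytes and meiosis fails. On a sucrose gradient, RNPs separate by size, so a small free mRNP and a large aggregate come to rest in different fractions. Each member was therefore compared at 3 steps, from the extract to the pooled fractions, and from these to the beads with and without the antibody.

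Gene values are the authors' mean normalised read counts of each group. No value per library was given for genes, so the means carry no error here, a single library could not be removed, and no ratio below was tested against replicate spread. The authors' own fold changes, errors and p-values were not used. A gene was counted as higher or lower when its ratio of group means, each plus 1, reached 2-fold. The label of the samples was checked first. Mael was listed at a mean between 0 and 0.65 in the 4 groups. Some genes that every cell uses were listed as low, such as the ribosomal protein gene Rpl26 with 0 in BO, INPUT and IP and 0.418 in TOTAL, so a listing near 0 does not by itself show that a gene is silent. The summed spermatocyte markers stood at 32508 in TOTAL and the summed spermatid markers (Prm1, Prm2, Tnp1, Tnp2 and Acrv1) at 116. Depth is known only for the repeat counts of the same libraries, from which 1384903 to 2003195 reads were recovered in IP, 1712212 to 3513000 in BO, 3045169 to 3880635 in INPUT and 6021800 to 7282163 in TOTAL. BO replicate 3 stood apart there, with 52.1% of its repeat reads on the large ribosomal RNA against 3.18% and 3.25% in the other BO libraries, and no BO mean below could be given without it.

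All 9 members exceeded BO at least 2-fold in IP, as did 43.9% of 13638 genes. All 9 exceeded INPUT at least 2-fold in IP, as did 20.5% of 14404 genes, and all 9 were at least 2-fold lower in IP than in TOTAL, as were 26.2% of 14670 genes. These counts were fixed by the choice. Only 0.14% of 13570 genes met the 3 conditions together, that is 19 genes. They were the 9 members, 9 cytosolic ribosomal protein genes (among them Rps12, Rps19, Rpl21 and Rpl23) and Snapc5, whose IP mean was 51.2. The threshold against INPUT carried little margin, because the members' log2 ratio of IP to INPUT lay between 1.02 and 1.16. With the ratios rescaled in 3 other ways the members stayed above BO, above INPUT and below TOTAL in 9 of 9 cases, but between 0 and 2 of them remained 2-fold higher than INPUT, and between 6 and 9 remained 2-fold higher than BO.

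In the sentences that follow, the 4 group means of a gene stand on the scale of the IP against TOTAL comparison. The IP means of the 3 comparisons differed by a constant factor (SD 0.0019 and 0.0026 on the log2 scale over 11589 genes), which allowed INPUT and BO to be set on that scale.

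Tpt1 encodes the translationally controlled tumour protein, a small abundant protein whose mRNA is a classic target of growth-dependent translation. It lies at chr14:75845093-75848525 of mm10, on the forward strand. Its mean was 7991 in TOTAL, 900 in INPUT, 250 in BO and 1930 in IP. INPUT thus held 11.2% of the TOTAL level, the lowest share among the members, and IP regained 24.2%. IP was 2.15-fold higher than INPUT, 7.71-fold higher than BO and 4.14-fold lower than TOTAL. Only 0.00737% of genes had a lower ratio of INPUT to TOTAL.

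Magoh and Rbm8a encode the partner proteins MAGOH and Y14, which clamp onto spliced RNA in the core of the exon junction complex. Magoh (chr4:107879755-107887424, forward strand) had means of 842 in TOTAL, 141 in INPUT, 120 in BO and 314 in IP. Rbm8a (chr3:96629933-96633791, forward strand) had means of 748 in TOTAL, 179 in INPUT, 108 in BO and 366 in IP. Rbm8a kept more of its TOTAL level in INPUT (24.1%) than Magoh did (16.8%). Magoh had the smallest distance between BO and INPUT of the 9 members, 1.17-fold, and also the lowest ratio of IP to BO, 2.6-fold. The paralog Magohb, which encodes a nearly identical protein, had means in its own comparisons of 322 in TOTAL, 75.8 in INPUT and 82.4 in BO. Its log2 ratios of IP were 1.20 to INPUT, -0.88 to TOTAL and 0.70 to BO, so it missed the threshold in 2 of the 3 comparisons. How reads shared by such close copies were counted is not given in the sources used here, and the split between Magoh and Magohb is uncertain to that extent. The same holds for Tpt1 and ribosomal protein genes, which have processed pseudogenes close to them in sequence.

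Tbca and Pdcd5 belong to the world of protein folding. Tbca, tubulin folding cofactor A, holds beta-tubulin on its way to the dimer, and Pdcd5 encodes a small protein that binds the CCT chaperonin and has been linked to cell death. Tbca (chr13:94788910-94842922, forward strand) had means of 1373 in TOTAL, 247 in INPUT, 175 in BO and 539 in IP. Pdcd5 (chr7:35641982-35647521, reverse strand) had means of 778 in TOTAL, 157 in INPUT, 64.2 in BO and 346 in IP. Both gained about the same from INPUT to IP, 2.19-fold for Tbca and 2.2-fold for Pdcd5. They differed on bare beads, where Tbca was 1.41-fold and Pdcd5 2.41-fold lower than in INPUT.

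Prdx1 encodes a peroxiredoxin, which reduces hydrogen peroxide, and Nudt2 a Nudix hydrolase that cleaves the dinucleotide Ap4A. Prdx1 (chr4:116685544-116700822, forward strand) had means of 7111 in TOTAL, 1690 in INPUT, 430 in BO and 3405 in IP. Nudt2 (chr4:41465151-41480926, forward strand) had means of 314 in TOTAL, 60.9 in INPUT, 38.3 in BO and 137 in IP. Prdx1 had the highest ratio of IP to BO of the 9 members, 7.92-fold, together with the lowest ratio of IP to INPUT, 2.02-fold. Nudt2 had the highest ratio of IP to INPUT, 2.24-fold, and was 3.51-fold higher in IP than in BO.

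Shfm1, named Sem1 in newer annotation, encodes a very small acidic protein found in the proteasome lid, in BRCA2 complexes and in the TREX-2 mRNA export complex. It lies at chr6:6557294-6578663 on the reverse strand. Its means were 1505 in TOTAL, 244 in INPUT, 86.2 in BO and 511 in IP. INPUT held 16.2% and IP 34.02% of the TOTAL level, and IP was 5.87-fold higher than BO.

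Snhg6 is the exception to a description of the set as mRNAs. It is a noncoding host of the small nucleolar RNA Snord87, annotated as a lincRNA at chr1:9941959-9944118 on the reverse strand. Its means were 560 in TOTAL, 120 in INPUT, 64.3 in BO and 257 in IP, so that it was 2.14-fold higher in IP than in INPUT and 2.17-fold lower than in TOTAL. Snord87 inside it had means of 6.15 in TOTAL and 0.777 in IP. On the other strand the end of Mcmdc2, a meiotic recombination gene, overlaps Snhg6 over 127 nt. Mcmdc2 was, like Snhg6, higher in IP than in BO and INPUT (log2 ratios of 3.03 and 2.23), but it was also higher than in TOTAL, with means of 181 in TOTAL and 1447 in IP. The library kit keeps the strand, but whether the counting used it is not given in the sources used here, so reads of the 2 genes in the overlap may not have been told apart. Tpt1 also hosts a small nucleolar RNA, Snora31, with means of 7.43 in TOTAL and 1.86 in IP.

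**Figure D1:**
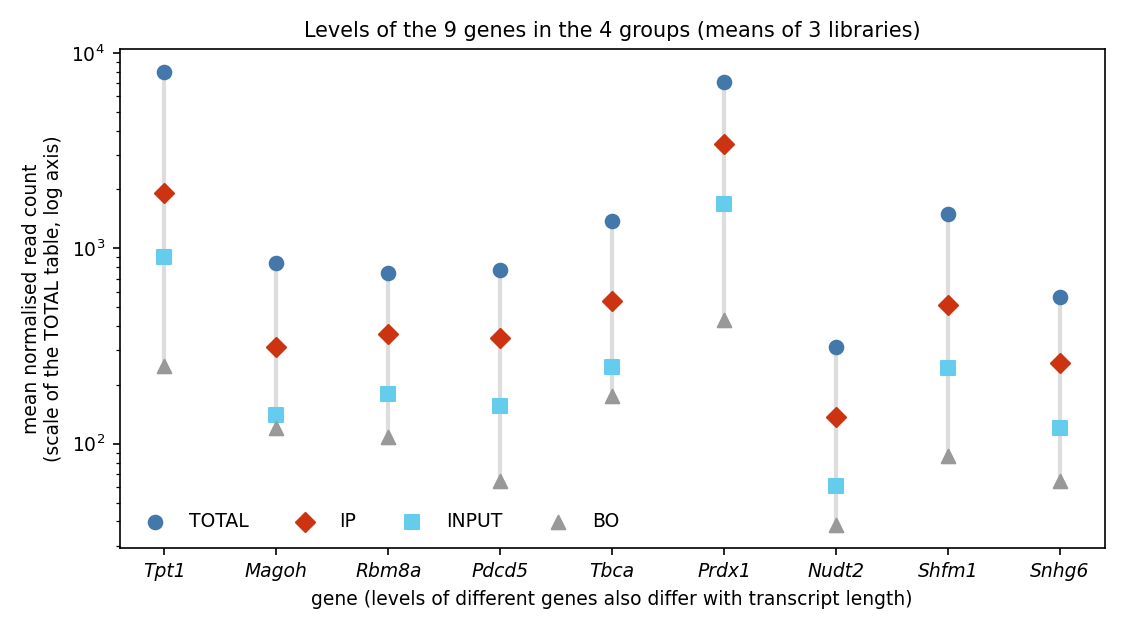
Mean normalised read count (log axis, scale of the IP against TOTAL comparison) of each of the 9 genes in TOTAL, IP, INPUT and BO, each point being the authors' mean of 3 libraries, with no error given. In each gene TOTAL is highest and BO lowest, IP lies between TOTAL and INPUT, and BO comes closest to INPUT in Magoh.

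The order TOTAL > IP > INPUT > BO held in 9 of 9 members and in 9.73% of 13570 genes. The first 3 places of it follow from the choice of members. The place of BO under INPUT nearly does, because the choice asked for 2-fold over BO and the members were little more than 2-fold over INPUT, and nothing is read from it. The members' log2 ratio of BO to INPUT ran from -1.97 in Prdx1 to -0.22 in Magoh, with a median of -0.88. It was computed from 2 separately normalised comparisons that share the IP libraries. When each comparison was centred on its median gene, BO was below INPUT in 6 members and not in Magoh, Tbca and Nudt2.

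Levels were also divided by the length of the longest annotated transcript, so that genes could be set beside each other. Per kilobase, Tpt1 was highest in TOTAL (6836), followed by Prdx1 (3100), Tbca (2168), Magoh (1217), Pdcd5 (935), Snhg6 (687), Shfm1 (669), Nudt2 (372) and Rbm8a (271). Tpt1 was also highest and Rbm8a lowest in INPUT (770 and 65.0) and in IP (1651 and 133). In BO, Tbca led with 276 per kilobase, ahead of Tpt1 (214), Prdx1 (187) and Magoh (174), and Shfm1 came last with 38.3. The longest transcripts of Pdcd5 and Shfm1 are annotated as retained introns and that of Tbca as a target of nonsense-mediated decay. Per kilobase of the principal transcript, an alternative chosen after seeing the data, Shfm1 stood at 1022 in TOTAL, above Snhg6, and at 58.6 in BO, where Rbm8a (41.6) was then last, while Pdcd5 stood at 1138 and Tbca at 2455 in TOTAL. Without a spread between libraries it cannot be said which neighbours in these orders differ.

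The ratios that chose the members had unequal ranges. Their log2 ratio of IP to BO had an SD across members of 0.59 and a range of 1.61, from Magoh to Prdx1. Their log2 ratio of IP to INPUT had an SD of 0.05 and a range of 0.15. The narrow range lies against the limit of 1 that chose the members, while the lowest ratio to BO, 1.38, was farther from its own, so nothing is read from the contrast. Among all genes the middle 90% of log2 ratios of IP to INPUT lay between -1.68 and 1.82.

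**Figure D2:**
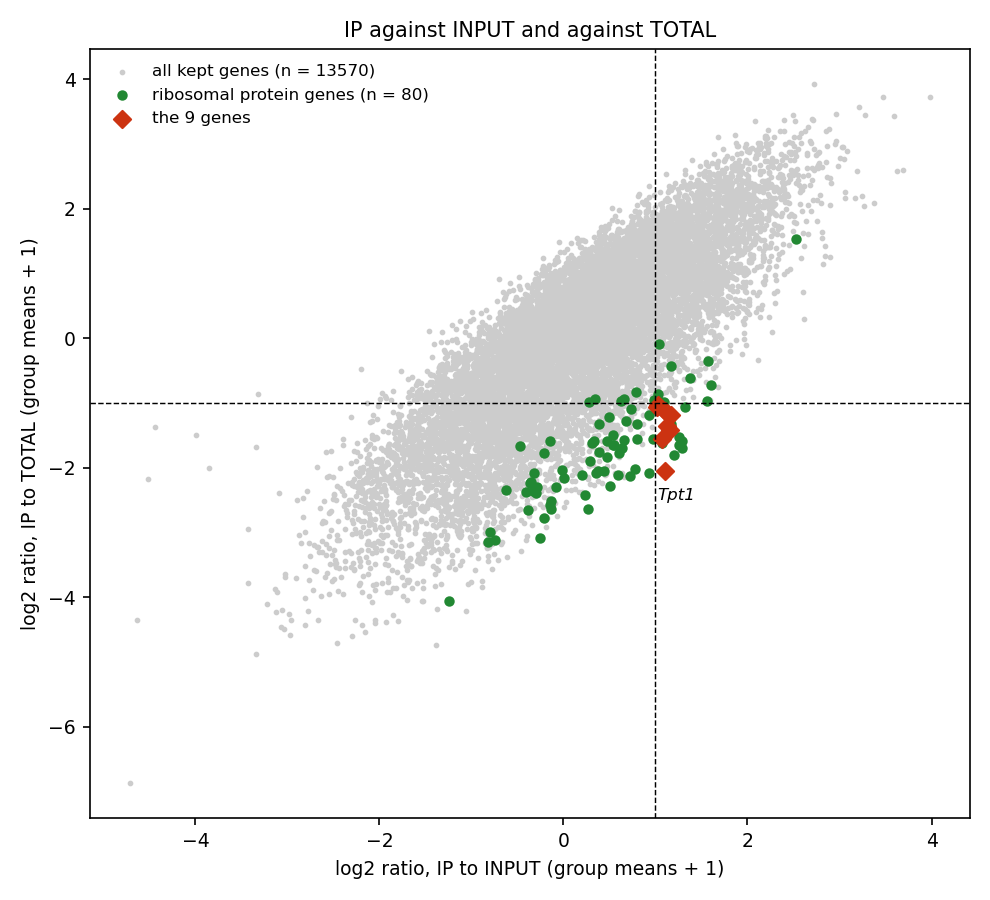
Log2 ratio of IP to INPUT (horizontal) against log2 ratio of IP to TOTAL (vertical) for 13570 genes (grey), 80 ribosomal protein genes (green) and the 9 genes (red diamonds), with dashed lines at 2-fold. The 9 genes lie just right of the line at 1 and below the line at -1, within a lower edge that they share with ribosomal protein genes, and Tpt1 lies lowest among them.

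Every member dropped from TOTAL to INPUT. The members' log2 ratio of INPUT to TOTAL lay between -3.16 (Tpt1) and -2.06 (Rbm8a), with a median of -2.35, while the median of all genes was -0.12. Each member had its INPUT at or below 25% of TOTAL, as the choice required, and only 2.2% of 13570 genes did, 299 in number. With each of the 3 other scalings 7 members did, without Rbm8a and Prdx1. Among these 299 genes IP was at least 2-fold higher than BO in 64.2% and at least 2-fold higher than INPUT in 15.7%, that is in 47 genes, the members included. Over the whole set of genes, 2270 were 2-fold higher in IP than in both BO and INPUT (16.7%), and 164 of these had a lower mean in IP than in TOTAL by any margin.

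Short coding regions were shared by all coding members. The longest annotated coding region measured 210 nt in Shfm1, 324 nt in Tbca, 438 nt in Magoh, 441 nt in Nudt2, 516 nt in Tpt1, 522 nt in Rbm8a, 597 nt in Prdx1 and 615 nt in Pdcd5. The median was 478.5 nt, against 1464 nt over 13111 genes, and 11.6% of genes had a coding region shorter than that of Pdcd5. Whole transcripts were less uniform. The longest transcript measured 633 nt in Tbca, 692 nt in Magoh, 816 nt in Snhg6, 832 nt in Pdcd5, 845 nt in Nudt2 and 1169 nt in Tpt1, but 2250 nt in Shfm1, 2294 nt in Prdx1 and 2757 nt in Rbm8a. The members' median was 845 nt against 3485 nt over 13465 genes. With the median transcript of each gene in place of the longest, it was 675 nt against 1518.5 nt. Rbm8a (2606 nt) and Shfm1 (1861 nt) were then longer than the median gene, and Prdx1 (648.5 nt) was shorter. A description of the set as short mRNAs therefore holds for its coding regions, but less so for the whole transcripts of Shfm1 and Rbm8a. For Prdx1 it depends on the transcript taken. Coding members had 3 to 6 exons in their principal transcript against a median of 9, and the GC content of the longest transcript had a median of 43.4% against 49.5%.

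Length went with the ratio of INPUT to TOTAL over all genes. The median log2 ratio was -1.63 in the 500 genes whose longest transcript was under 1000 nt, -0.89 in the 2036 genes from 1000 nt, -0.40 in the 2783 genes from 2000 nt, -0.03 in the 4874 genes from 3000 nt and 0.45 in the 3272 genes of 5000 nt or more. The median log2 ratio of IP to TOTAL followed the same order, from -1.97 to 0.64. The ratio of IP to INPUT did not, with medians of -0.22, 0.12, 0.22, 0.23 and 0.21 from the shortest class to the longest. That of IP to BO ran the other way, with medians of 1.49, 1.39, 1.14, 0.74 and 0.11. In the shortest class 66.2% of genes were at least 2-fold higher in IP than in BO, and in the longest 22.2%. Among genes under 1000 nt, 72.8% were at least 2-fold lower in IP than in TOTAL and 15.2% at least 2-fold higher than in INPUT. Magoh, Pdcd5, Tbca, Nudt2 and Snhg6 belong to this class, in which 1.4% of genes met the 3 conditions. By their longest transcript, Rbm8a, Prdx1 and Shfm1 belong to the class from 2000 to 3000 nt, in which 0.144% did. The part of length in the members' ratios was not tested.

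**Figure D3:**
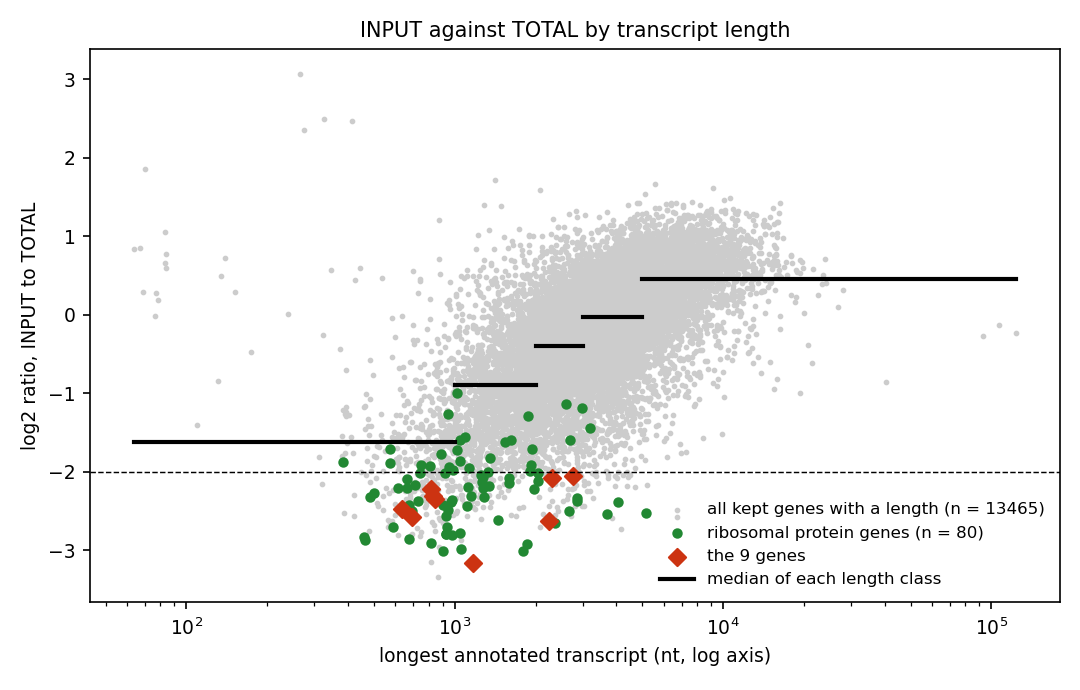
Length of the longest annotated transcript (nt, log axis) against log2 ratio of INPUT to TOTAL for 13465 genes (grey), 80 ribosomal protein genes (green) and the 9 genes (red diamonds), with black bars for the median of each length class and a dashed line at -2. The class medians climb from -1.63 to 0.45. The 9 genes lie under the dashed line, 3 of them beyond 2000 nt by their longest transcript. Of these 3, Shfm1 has a principal transcript of 1472 nt and Prdx1 a median transcript of 648.5 nt.

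The start of the RNA was examined because Tpt1 and the ribosomal protein genes are known for a 5′ terminal oligopyrimidine (TOP) tract, a run of C and T letters at the first base of the transcript that ties translation to growth signals. RefSeq windows (GRCm38.p6, the mm10 build) of 15 bases before and 15 bases from the annotated start were read on the gene's strand for 7 members. The windows shown are that of Tpt1 as the known TOP mRNA and those of the 3 members with the longest runs, with the longest run of C and T in capitals.
Tpt1, chr14:75845241-75845270, forward: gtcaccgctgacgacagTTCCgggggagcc
Prdx1, chr4:116685584-116685613, forward: cccgcgcgcgctgtcgggcgaCCTCTTCCT
Tbca, chr13:94788905-94788934, forward: gcgccgcgcagccccgCCTCTCCTTCCTgc
Shfm1, chr6:6578644-6578673, reverse: gcagCTCTTTCCCTCTCgtctctatggttg

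A run of at least 8 C or T letters was present in 3 of 7 members (42.9%), in 22 of 51 ribosomal protein genes (43.1%) and in 982 of 8478 genes (11.6%). The length of 8 was set with these sequences in view. The median longest run, which needs no such length, was 5 letters in the members, 7 in the ribosomal protein genes and 4 in all genes. The run was 13 letters long in Shfm1, where it spans the annotated start, 12 in Tbca, where it begins 1 base after the start base, and 9 in Prdx1, where it reaches the end of the window. A run of at least 5 letters that opens with a C at the RefSeq start base was found in 0 of 7 members. It was found in 11 ribosomal protein genes (21.6%) and in 2.47% of all genes. The GENCODE start of Shfm1 (chr6:6578663) lies in the window shown, on a C inside its run, so the 0 holds for RefSeq starts only. In Tpt1 the longest run had 4 letters. The annotated RefSeq starts of Tpt1, Prdx1, Tbca, Shfm1 and Pdcd5 lie inside the genes as GENCODE draws them, so a window need not hold the start used in the testis.

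Related genes were counted by list, where the share of all genes 2-fold lower in IP was 11.2% for BO and 14.6% for INPUT, and the share 2-fold higher than TOTAL was 20.4%. Among the 18 other genes of the TOP list, which encode translation factors and a few other proteins, 17 exceeded BO at least 2-fold in IP, 5 were higher and 1 lower than INPUT, and 2 were higher and 9 lower than TOTAL. Their median log2 ratio of IP to TOTAL was -1.03, and that of Tpt1 was -2.05. Eef1d (-2.48) and Naca (-2.20) were lowest in it, while Pabpc1, the cytoplasmic poly(A)-binding protein (2.00), and Nap1l1, a histone chaperone (1.496), were highest. The cytosolic ribosomal protein genes were taken by symbol, which admits related genes such as Rpl7l1 and Rps4l, the latter without an annotated coding region. In the 80 genes so taken the median log2 ratio was 2.52 for IP to BO, 0.50 for IP to INPUT and -1.68 for IP to TOTAL. Of these, 79 were 2-fold higher than BO, 19 higher and 1 lower than INPUT, and 64 lower and 1 higher than TOTAL, and 54 had INPUT at or below 25% of TOTAL. Against INPUT there were 13 higher and 1 lower when centred on the median gene (median 0.35), but 4 higher and 5 lower with the upper quartile (0.09) and 5 higher and 4 lower with the summed gene means (0.14). Rps4x had the lowest log2 ratio of IP to TOTAL (-4.05), followed by Rps21 (-3.14), and Rpl10l had the highest (1.53), followed by Rpl7l1 (-0.09). The 9 ribosomal protein genes that met the 3 conditions had a median coding region of 420 nt and a median longest transcript of 1443 nt.

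In the list around Magoh and Rbm8a, of 12 other genes of the exon junction complex and its partners, 8 exceeded BO 2-fold in IP, 6 exceeded INPUT, and 3 were higher and 1 lower than TOTAL. The median log2 ratio of IP to TOTAL was 0.23. Scaled by the upper quartile or to the summed gene means, 0 exceeded INPUT and 4 were lower than TOTAL, with medians of 0.02 and 0.06 in IP to TOTAL. Over BO there were 4 when centred on the median gene and 5 with the upper quartile. Upf1, the helicase of nonsense-mediated decay, was highest at 2.29 with a mean of 2330 in TOTAL and 11404 in IP, and Acin1, a peripheral splicing component, stood at 1.81. Wibg, the factor that takes the complex apart, was lowest at -1.04, followed by Upf3b at -0.89. Upf1 has a coding region of 3372 nt, and Wibg one of 609 nt.

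In the list of tubulin cofactors, prefoldin and CCT, 17 of 18 other genes exceeded BO 2-fold in IP, 9 exceeded INPUT, and 3 were higher and 5 lower than TOTAL. With the 3 other scalings 11 to 17 exceeded BO, 6 to 7 exceeded INPUT and 0 to 4 exceeded TOTAL. Tcp1 and Vbp1 had the highest log2 ratios of IP to TOTAL, 1.20 and 1.12. Tbcb (-2.28), another tubulin cofactor, and Pfdn5 (-2.20), a prefoldin subunit, had the lowest, and neither was 2-fold higher than INPUT (-0.64 and 0.10). The prefoldin gene Pfdn4 resembled the members in INPUT to TOTAL (-2.18) and rose more over INPUT (1.94), which left it at -0.24 against TOTAL. Among 8 partners of the Shfm1 protein, 5 were higher than BO, 5 higher than INPUT, and 3 higher and 0 lower than TOTAL, with 3 over BO when centred on the median gene or scaled by the upper quartile and 2 over TOTAL with the upper quartile or the summed gene means. In IP to TOTAL, Brca2 (2.14) and Mcm3ap (1.59) were highest and Eny2 (-0.62) and Cetn3 (-0.47) lowest. The medians of these 2 lists in IP to TOTAL, 0.17 and 0.18, fell to -0.04 in both when the group means were scaled by their upper quartile.

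Among enzymes related to Prdx1 and Nudt2, most were 2-fold lower in IP than in TOTAL and 1 was 2-fold higher than in INPUT. Of 11 other peroxiredoxin and thioredoxin genes, 5 exceeded BO in IP, 1 was higher and 1 lower than INPUT, and 1 was higher and 8 lower than TOTAL, with a median log2 ratio of IP to TOTAL of -2.28. With the 3 other scalings, 4 to 6 were lower than INPUT, and 2 exceeded BO with the median gene or the upper quartile. Txn1 (-3.74) and Prdx2 (-3.39) were lowest. Txnrd3, a thioredoxin reductase of the testis, was highest (1.72), followed by Txnrd1 (-0.36). The log2 ratio of IP to INPUT, on which Prdx1 was chosen, was 1.02 in Prdx1, -1.52 in Prdx2, -0.95 in Prdx3, -0.93 in Prdx4, -0.76 in Prdx5 and -0.65 in Prdx6. In INPUT to TOTAL, Prdx1 stood at -2.08, Prdx3 at -1.98, Prdx2 at -1.87, Prdx6 at -1.73, Prdx5 at -1.58 and Prdx4 at -0.47. Of 17 other Nudix hydrolases that passed the minimum mean, 8 were higher and 1 lower than BO, 0 higher and 2 lower than INPUT, and 0 higher and 10 lower than TOTAL. Against BO the direction turned to 2 higher and 4 lower when centred on the median gene and to 2 higher and 3 lower with the upper quartile, and 3 to 4 were lower than INPUT with the 3 other scalings. Nudt22 (-2.33) and Nudt8 (-2.27) were lowest in IP to TOTAL, and Nudt5 (0.55) and Nudt21 (-0.03) highest.

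Of 9 other noncoding hosts of small nucleolar RNAs, 3 exceeded BO in IP and 1 was lower, 0 were higher and 4 lower than INPUT, and 0 were higher and 5 lower than TOTAL. Their median log2 ratio of IP to BO, 0.47, turned to -0.35 when centred on the median gene and to -0.21 with the upper quartile, each with 3 higher and 2 lower. Snhg18 (-3.79) and Snhg8 (-3.00) had the lowest log2 ratios of IP to TOTAL, and Snhg1 (-0.22) and Snhg5 (-0.58) the highest among those with a mean of at least 100. The log2 ratio of IP to INPUT was 1.10 in Snhg6, against a list median of -0.81 and 0.75 in Snhg5, the highest of the others.

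**Figure D4:**
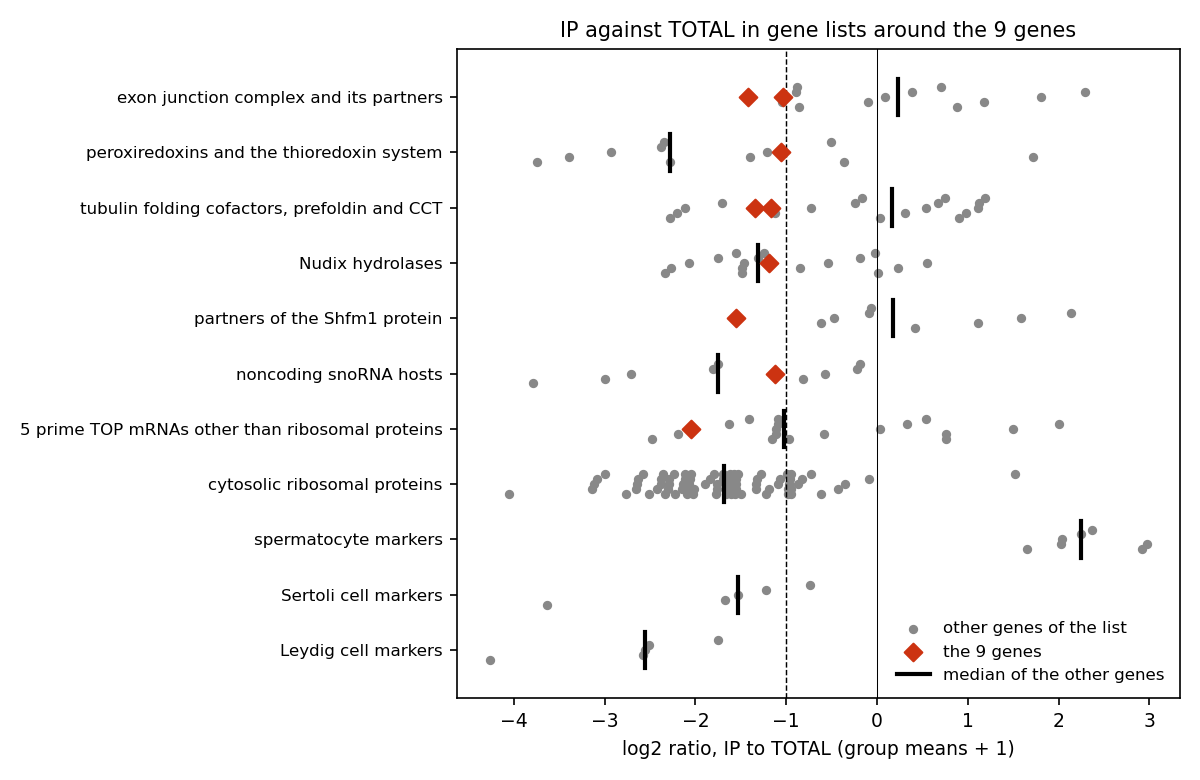
Log2 ratio of IP to TOTAL for each gene of 11 lists, with grey points for the other genes, red diamonds for the 9 genes, black bars for the median of the other genes and a dashed line at 2-fold lower. The medians reach from -2.56 in Leydig cell markers to 2.25 in spermatocyte markers. The 9 genes lie left of the dashed line because they were chosen by this ratio.

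Markers of the cells of the testis moved with the IP. All 7 spermatocyte markers exceeded BO, INPUT and TOTAL 2-fold in IP (6 over INPUT with the upper quartile or the summed gene means), and their summed mean was 20863 in BO, 34299 in INPUT, 32508 in TOTAL and 168905 in IP. Sycp1, Sycp3 and Dazl held most of it. The summed Sertoli cell markers were 29892 in BO, 81742 in INPUT, 73133 in TOTAL and 23540 in IP, and 4 of 5 were 2-fold lower in IP than in TOTAL. Clu held most of this sum, with 66084 in TOTAL and 20786 in IP. The sum was higher in INPUT than in TOTAL, but the list's median log2 ratio of INPUT to TOTAL was -0.40. The summed Leydig cell markers were 7401 in BO, 42178 in INPUT, 77573 in TOTAL and 15226 in IP, and 5 of 5 were lower in IP than in TOTAL. Of the blood cell markers Ptprc alone had a row, with 365 in TOTAL and 131 in IP. The spermatid markers summed to 3.0 in IP, and Prm2 was listed at 0 there. The median log2 ratio of IP to TOTAL was 2.25 in the spermatocyte list, -1.53 in the Sertoli list and -2.56 in the Leydig list. In a level of TOTAL, fewer cells of a type and less RNA per cell cannot be told apart, whereas INPUT, BO and IP were all taken from the TOTAL extract. The part of cell type in the members' ratios was not tested.

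Genes close to the members were found on both sides of the thresholds. Leaving ribosomal protein genes aside, 4 genes missed a single threshold by less than 0.1 on the log2 scale. Only genes with an IP mean of at least 100 were searched for this. Atp6v1g1, a subunit of the vacuolar proton pump, stood at -0.998 in IP to TOTAL, short of the line by 0.002. Txndc17 (-0.96) and B230118H07Rik (-0.93) missed the same threshold, and the histone gene H3f3a missed that for INPUT (0.93). Just inside by the same margin were Prdx1 with 1.02, Rbm8a with 1.03 and Shfm1 with 1.07 in IP to INPUT. In IP to TOTAL these were Rbm8a and Snapc5 with -1.03 and Prdx1 with -1.06. The minimum of 100 was not set on this side, and Snapc5 had an IP mean of 51.2.

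Likeness to the members was measured as the Euclidean distance over the 3 log2 ratios from their mean profile (2.16 to BO, 1.10 to INPUT and -1.33 to TOTAL). Snhg6 (0.27) and Pdcd5 (0.30) lay closest to it among the members and Tpt1 (1.07) farthest. Among the 10258 other genes whose IP mean reached 100, the 10 nearest were Rpl5 (0.38), Ak6 (0.38), Rps3a1 (0.40), Nudc (0.43), Zmat2 (0.43), Rps15a (0.44), Rpl23 (0.45), Btf3 (0.48), Psmb2 (0.49) and Mrpl30 (0.50). Of these, 4 encode cytosolic ribosomal proteins and the other 6 do not. Rpl23 met the 3 conditions. The others fell short of 2-fold over INPUT, with log2 ratios of 0.615 to 0.974, and Mrpl30 was also less than 2-fold under TOTAL (-0.95). Tpt1, Prdx1 (0.87), Magoh (0.79), Tbca (0.54) and Rbm8a (0.52) lay farther from the members' mean profile than any of these 10 genes.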

How the data were processed

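The 12 RNA-seq libraries were placed in the groups TOTAL, INPUT, BO and IP by their labels, 3 in each. Per the labels, the authors used mm10, STAR 2.6.0c and DESeq2 1.24.0. The tool and annotation that counted reads per gene are not given in the sources used here. For IP against each other group, the deposited gene values are a signal, the authors' mean normalised count per group. The tables also hold the authors' log2 fold change, its standard error, a test score, p-value and adjusted p-value, which were not used. The deposited repeat signal per library was a whole multiple of 1 step in 100% of low values (tolerance 0.1 of a read), which gave reads on repeats. The depth behind the gene means is unknown.

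Ratios are log2 of the group means plus 1, so low genes are understated. Genes entered with a mean of the 2 group means of at least 10, and 2-fold was the limit. INPUT to TOTAL and BO to INPUT are differences of 2 such ratios. Symbols were matched to GENCODE M21 for 20670 of 20985 genes, 818 through an older symbol. Calculations used Python 3.11.15 with pandas 2.3.3 and were tested on simulated data. The members and gene lists were chosen with earlier results of these data known. Named were the members, their paralogs, the 10 nearest genes, those within 0.1 of a threshold, and the 2 highest and 2 lowest genes per list by IP to TOTAL with a mean of at least 100. Genes named outside this rule, such as Pfdn4, Snapc5, Mcmdc2 and the other peroxiredoxins, were chosen after their values were seen. The alternatives were other pseudocounts, filters, scalings and transcript lengths.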

Additional observations from a re-analysis of the deposited data

How the results depend on the processing

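No paired analysis was possible because the gene tables give group means and no value per library. For the same reason, leaving out each replicate was not run. Of 49 recomputed counts and medians of the members' 3 ratios of IP, 17 equalled the reported value, 32 differed from it and 0 changed direction. Directions did turn outside these, in BO against INPUT for Magoh, Tbca and Nudt2 and in lists of related genes, as given with them. Scaling moved the most. The members 2-fold higher in IP than in INPUT fell from 9 to 2 when the comparison was centred on its median gene, to 0 when scaled by the upper quartile and to 0 when scaled to the summed gene means. The members 2-fold higher in IP than in BO numbered 6, 7 and 9 in the same order, and those 2-fold lower than TOTAL 9 throughout. The members past all 3 thresholds then numbered 1 (Nudt2), 0 and 0, and the genes past them 9, 2 and 2 in place of 19. In the same order the members' median log2 ratio was 1.17, 1.31 and 2.02 for IP to BO, 0.96, 0.70 and 0.74 for IP to INPUT, and -1.16, -1.40 and -1.36 for IP to TOTAL. These scalings subtracted 0.81, 0.67 and -0.04 from each log2 ratio of IP to BO, 0.15, 0.41 and 0.37 from that of IP to INPUT, and -0.03, 0.21 and 0.18 from that of IP to TOTAL. A pseudocount of 0.1 gave medians of 2.00 for IP to BO and -1.19 for IP to TOTAL. A pseudocount of 10 gave 1.81, 1.06 and -1.15 for IP to BO, INPUT and TOTAL, and left 8 members past all 3 thresholds, without Rbm8a. A minimum mean of 100 in every comparison removed Nudt2, which was under it beside BO and INPUT, left 8 members past each threshold and gave medians of 2.20 for IP to BO and -1.26 for IP to TOTAL. Without a filter the members' values were as reported, and 21 genes passed all 3 thresholds. The median transcript of each gene gave a median length of 675 nt in place of 845 nt. The depth behind the gene means is unknown, so no count of reads stands behind a low mean such as the BO level of Nudt2.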
